A study of Mus musculus with 30 samples.

Results

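Complement transcripts were followed in fracture callus through 9 genes of 43629 in the deposited count table: C1qa, C1qb, C1qc, C2, C3, C4b, Cfb, C3ar1 and C5ar1. They were taken by name, as components and receptors of the complement cascade. The callus, the repair tissue that bridges a broken bone, came from male C57BL/6J mice that were 20 weeks old at an open osteotomy of the right tibia, stabilised with an intramedullary nail. Callus of lean mice on a control diet (Lean) was taken 3, 5, 7 or 10 days after fracture (d3 to d10), and that of diet-induced obese mice on a high-fat diet (DIO) on these days and also on d14 and d21. Each of the 10 groups held 3 mice and each of the 30 libraries came from 1 callus, with 12 Lean and 18 DIO libraries. Lean callus of d14 and d21 was not analysed here, so the 2 latest days have no Lean counterpart. The DIO mice model obesity through diet only. With 1 callus per mouse, the spread between libraries includes that between mice, which cannot be told apart from that of dissection and library preparation.

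Complement is a cascade of plasma and tissue proteins that marks microbes, dying cells and debris for removal. C1q, assembled from the products of C1qa, C1qb and C1qc, recognises its target and starts the classical pathway, in which C4 and C2 are cleaved to form an enzyme that splits C3, the central protein of the system. Factor B, the product of Cfb, forms the matching enzyme of the alternative pathway. The small fragments C3a and C5a act on the receptors encoded by C3ar1 and C5ar1 on myeloid cells. Most complement in plasma is made by the liver, while C1q is made mainly by macrophages and related cells in tissues.

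All 9 genes lie on the reverse strand of GRCm38. C1qb (chr4:136880129-136886187), C1qc (chr4:136889804-136893065) and C1qa (chr4:136895917-136898803) are neighbours. C4b (chr17:34728380-34743882), Cfb (chr17:34856374-34862518) and C2 (chr17:34862604-34898265) lie in the class III region of the major histocompatibility complex, and C3 (chr17:57203970-57228136) is on the same chromosome. C3ar1 lies at chr6:122847138-122856161 and C5ar1 at chr7:16246743-16259540.

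Levels are given as CPM, a gene's counts relative to the library's total, adjusted with the trimmed mean of M-values (TMM) over all 30 libraries. Between 13247122 and 26365620 reads per library were counted on genes, so 3 counts corresponded to 0.114 to 0.226 CPM before the TMM adjustment. Of the 10 macrophage markers, all were detected in each group, and their summed level ran from 1778 to 5211 CPM. Of 5 hepatocyte markers, Ttr and Serpina1a were at 0 counts in every library, Alb reached at most 3 counts, and the sum of the 5 was at most 0.897 CPM. These are bulk libraries, in which fewer cells of a type and less RNA per cell cannot be told apart.

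Counting limits differed among the members. An annotated readthrough gene, Gm20547, runs on the same strand over 79.5% of the exonic bases of Cfb and 42.8% of those of C2, and was listed at 0 counts in all 30 libraries. If reads on shared bases were left uncounted, the counts of Cfb could come from 579 of its 2825 exonic bases and those of C2 from 2216 of 3872. A low value of either thus does not show low expression. Zbtb12 lies over 161 exonic bases of C2 on the opposite strand, which matters only if strand was ignored in counting. The strand option is not given. C4b shared 32.8% of its 53-base windows, the read length, with its near copy C4a, so its counts are uncertain to that extent. C4a itself ran from 0.546 to 2.44 CPM. The other 6 members shared no such window with another gene and overlapped no other exon.

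Per kilobase of summed exons, C1qb was the highest member, with a median over the 30 libraries of 251 CPM per kb. C1qa followed at 191 CPM per kb and C1qc at 99.3 CPM per kb, and this order held in 30 of 30 libraries. C3 (21.0 CPM per kb), C5ar1 (12.4), C3ar1 (8.81) and C4b (5.56) came next on the same scale. Neighbours in this middle part changed places: C3 was above C5ar1 in 26 of 30 libraries, C5ar1 above C3ar1 in 25 and C3ar1 above C4b in 25. C2 was at 1.17 CPM per kb and Cfb at 0.0604, or 2.04 and 0.294 over the exonic bases free of other genes on the same strand, a length chosen after the data were seen. Counted per longest transcript, C1qc rose to 159 CPM per kb and the order of the 9 medians was the same. On this length the lowest C1qc value, 119 CPM per kb, was above the lowest of C1qa, 112 CPM per kb. The order of these chains thus did not hold in every library.

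**Figure D1:**
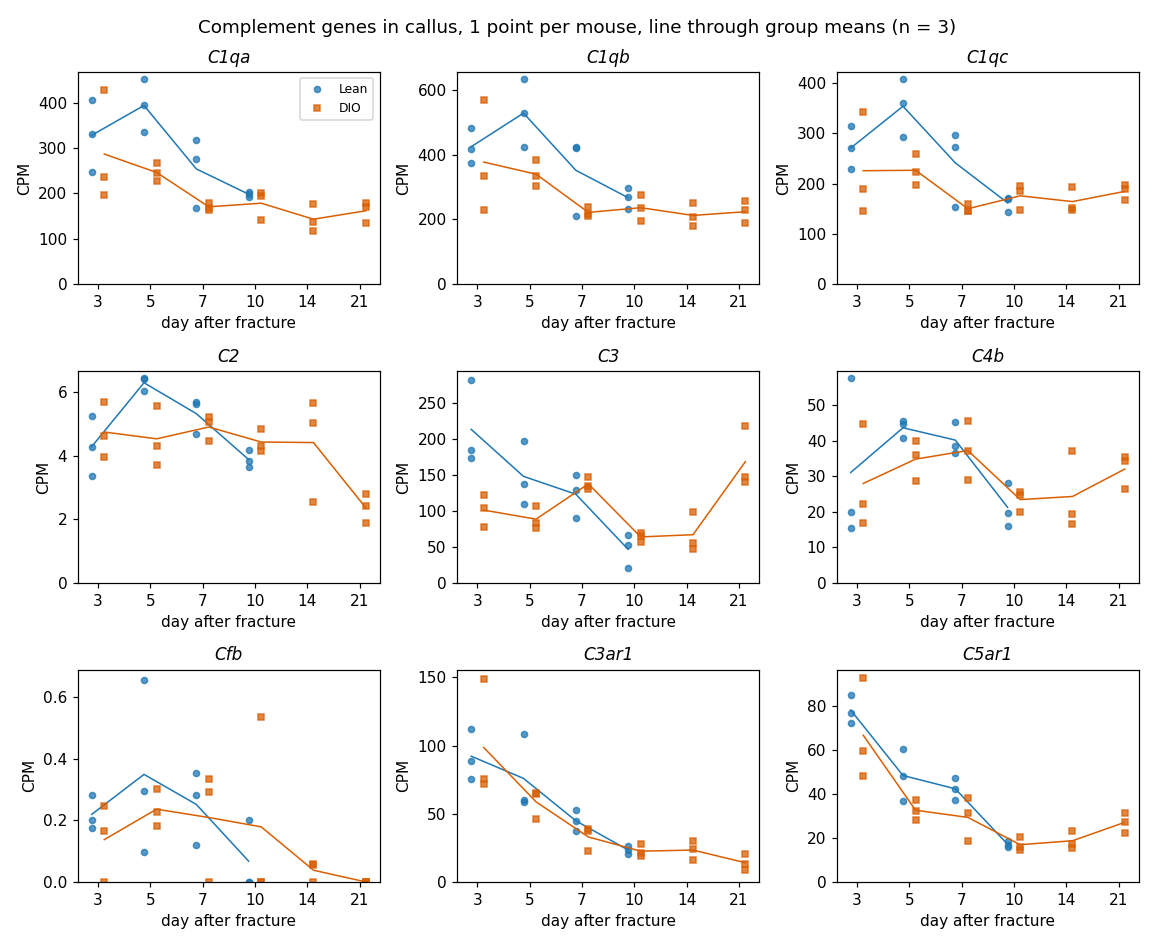
CPM of each complement gene (vertical axes, starting at 0 and scaled per gene) against the day after fracture (horizontal axes, days evenly spaced), with 1 point per mouse and a line through the means of 3 mice, Lean as circles and DIO as squares. The C1q genes were high in Lean callus on d5, C3ar1 had its highest mean on d3 in both diets, and C3 in DIO callus was higher on d21 (140 to 217 CPM) than on d14 (46.9 to 98.9 CPM).

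The 3 C1q chains were set against each other. Over the 30 libraries C1qb was between 1.17 and 1.55 times C1qa in CPM, and C1qc between 0.723 and 1.27 times C1qa, ratios that were chosen for description after the values were seen. In DIO callus C1qc was 0.733 to 0.807 times C1qa on d3 and 1.10 to 1.27 times on d14 and d21, with no overlap between d3 and these days. Upstream sequence was at hand in RefSeq promoter windows (GRCm38.p6, 250 bases before and 50 after a gene's start) for C1qb, C1qc, C3, C3ar1 and C5ar1. The stretches of 4 of them that lie before both the RefSeq and the GENCODE start are printed 5′ to 3′ on the reverse strand, the 2 C1q genes because they encode chains of 1 protein and C3 and C3ar1 because they moved apart on d21. They are chr4:136886201-136886450, chr4:136893066-136893164, chr17:57228137-57228386 and chr6:122856162-122856407, in this order. Capitals mark the matches to the 7 motifs searched.
C1qb: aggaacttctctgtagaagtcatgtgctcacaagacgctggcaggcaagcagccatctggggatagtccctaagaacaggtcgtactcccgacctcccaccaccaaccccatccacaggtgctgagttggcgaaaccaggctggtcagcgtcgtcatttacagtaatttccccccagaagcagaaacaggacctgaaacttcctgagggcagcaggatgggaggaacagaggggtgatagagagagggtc
C1qc: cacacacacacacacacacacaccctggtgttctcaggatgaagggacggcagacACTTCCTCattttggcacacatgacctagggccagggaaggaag
C3: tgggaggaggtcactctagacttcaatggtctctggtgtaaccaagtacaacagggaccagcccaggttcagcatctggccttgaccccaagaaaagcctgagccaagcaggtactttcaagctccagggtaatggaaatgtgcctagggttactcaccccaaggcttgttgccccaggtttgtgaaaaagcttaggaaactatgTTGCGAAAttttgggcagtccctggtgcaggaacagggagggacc
C3ar1: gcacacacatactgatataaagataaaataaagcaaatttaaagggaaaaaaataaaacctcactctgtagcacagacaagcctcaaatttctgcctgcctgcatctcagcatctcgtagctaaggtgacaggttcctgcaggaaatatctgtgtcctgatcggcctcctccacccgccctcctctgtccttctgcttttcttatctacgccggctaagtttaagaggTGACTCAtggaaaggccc

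The motifs were searched on both strands of the whole windows. A PU.1 motif, GAGGAAGT, was matched once upstream of C1qc, with its first base 195 bases before the RefSeq start, and occurs in 3.20% of all 32851 windows. A C/EBP motif, TTGCNNAA, was matched once at 45 bases before the start of C3 (10.8% of windows), and an AP-1 motif, TGANTCA, once at 22 bases before that of C3ar1 (7.81%). No match was found in the 5 windows for the ETS-IRF composite GGAANNGAAA (2.72% of all windows), the interferon-stimulated response element GAAANNGAAA (3.44%), the NF-kB form GGGANNTTCC (1.47%) or the STAT element TTCNNNGAA (8.30%), and the composite can overlap the PU.1 motif in GGAA and the response element in GAAA. A match is a description of these letters and says nothing on binding.

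The course in Lean callus was examined first, in 1 fit of the 12 Lean libraries. Here and below, a gene is called where the adjusted p of edgeR's quasi-likelihood test, corrected over all genes tested by the Benjamini-Hochberg method, is under 0.05. Cfb did not pass the filter on low counts in any fit, so 8 members were tested. Between any of the 4 Lean days 5 of the 8 differed, against 19% of all 16471 genes tested. From d3 to d10 the same number fell, 5 of 8, and none rose, where 29.3% of all genes were called (15.2% higher and 14.1% lower). The median log2 fold change of the 8 was -0.72, beside 0.02 over all genes. From d3 to d5, 0 of 8 were called by edgeR (0.449% of all genes), with 2 of 8 at an unadjusted p under 0.05 (14.8% of all genes) and 1 called by DESeq2, among 596 genes. The 3 Lean comparisons share libraries, d3 or d10, and are not independent.

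C1qa in Lean callus stood at 332, 248 and 405 CPM on d3 and at 451, 394 and 336 CPM on d5. It was 276, 318 and 168 CPM on d7 and 198, 204 and 193 CPM on d10, where all 3 mice were below every mouse of d3 and d5. C1qa fell by 0.71 ± 0.24 (SE) on the log2 scale between d3 and d10 (edgeR, adjusted p = 0.042). C1qc, the chain with the lowest level of the 3, fell by 0.72 ± 0.23 (edgeR, adjusted p = 0.036), from 228 to 314 CPM on d3 to 143 to 172 CPM on d10. C1qb went from 373 to 483 CPM on d3 to 234 to 297 CPM on d10, a log2 fold change of -0.65 ± 0.26 that did not pass (edgeR, adjusted p = 0.075). The calls of C1qa and C1qc were near the threshold: with 1 of the 12 libraries left out, C1qa passed in 5 of 12 fits and C1qc in 7, and the highest adjusted p, without Lean d3 replicate 3, were 0.14 and 0.11.

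C3 fell further. Its level was 173, 281 and 185 CPM on d3, 110, 197 and 137 CPM on d5, 89.7, 150 and 129 CPM on d7 and 21.0, 66.5 and 52.6 CPM on d10. All mice of d10 were below all mice of the earlier days. The fold change from d3 to d10 was -2.17 ± 0.38 on the log2 scale, a 4.49-fold decrease (edgeR, adjusted p = 0.0022). Neutrophil markers, 11 genes with a summed level of 12272 to 26540 CPM on d3 and 406 to 6360 CPM on d10, were lower as well, 6 of 11 by call, and their part in the fall of C3 was not tested.

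The anaphylatoxin receptors fell by a similar amount. C3ar1 stood at 112, 75.8 and 89.0 CPM on d3, 109, 60.4 and 58.7 CPM on d5, 52.8, 44.7 and 37.0 CPM on d7 and 26.2, 23.4 and 20.5 CPM on d10. Its log2 fold change from d3 to d10 was -1.96 ± 0.26 (edgeR, adjusted p = 0.00051). C5ar1 stood at 85.1, 76.9 and 72.5 CPM on d3, 36.7, 60.3 and 48.2 CPM on d5, 42.2, 47.5 and 37.4 CPM on d7 and 17.0, 15.8 and 18.6 CPM on d10. It had the smallest adjusted p of the members, 2.8e-05 by edgeR, with a log2 fold change of -2.17 ± 0.18. C5ar1 was also the 1 member of 8 called between d7 and d10 (log2 fold change -1.30 ± 0.17, edgeR adjusted p = 0.0074), where 2.73% of all genes were called. For both receptors the mice of d10 were below all mice of earlier days. Macrophage markers moved in the same direction, with a median log2 fold change of -1.03 from d3 to d10, 5 of 10 called lower and 2 higher. Summed chondrocyte markers rose, from 431 to 499 CPM on d3 to 9797 to 62289 CPM on d10, with 5 of 5 called. All 6 osteoclast markers were called higher. CPM are shares of a library, and the part of these lists in the falls of the members was not tested.

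The components C4b and C2 were not called between Lean days. C4b was 15.5, 20.0 and 57.5 CPM on d3, where 1 mouse stood apart, 40.7 to 45.4 CPM on d5, 36.6 to 45.2 CPM on d7 and 15.9 to 28.2 CPM on d10. Without that mouse, Lean d3 replicate 3, C4b was higher on d5 than on d3 (log2 fold change 1.30, edgeR adjusted p = 0.038), and the adjusted p over any day went from 0.22 to 0.0074. C2 was 3.36 to 5.24 CPM on d3, 6.04 to 6.45 CPM on d5, 4.68 to 5.68 CPM on d7 and 3.65 to 4.18 CPM on d10, with an adjusted p over any day of 0.11 by edgeR. Cfb held 0 to 11 counts per library over the whole series, with fewer than 3 counts in 14 of 30 libraries and 0 counts in all 3 DIO libraries of d21, so no change was detectable at this depth and over the bases left to it.

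In DIO callus the course extended to d21. Between any of the 6 DIO days 5 of the 8 members differed, C1qa, C1qb, C3, C3ar1 and C5ar1, where 59.1% of 16995 genes did. From d3 to d10, 3 of 8 fell and none rose, where 21.8% of all genes were called (11.1% higher and 10.8% lower). From d3 to d21, 5 of 8 fell and 1 rose, where 45.3% of all genes were called (23.5% higher and 21.8% lower). Between d14 and d21 1 member rose and 1 fell, against 19.6% of all genes (10.6% higher and 9.03% lower). From d3 to d5, 0 of 8 were called by edgeR (1.68% of all genes), with 2 of 8 at an unadjusted p under 0.05 (13.7% of all genes) and 1 called by DESeq2, among 580 genes. The comparisons with d3 share its 3 libraries.

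C3ar1 had its highest mean on d3 and its lowest on d21. It stood at 149, 75.5 and 71.5 CPM on d3, 46.5, 64.7 and 65.0 CPM on d5 and 38.6, 37.3 and 22.98 CPM on d7. On d10 it was 27.5, 21.3 and 18.8 CPM, on d14 29.7, 24.2 and 16.2 CPM, and on d21 8.59, 13.2 and 20.5 CPM. The log2 fold change was -2.12 ± 0.34 from d3 to d10 (edgeR, adjusted p = 0.00038) and -2.78 ± 0.35 from d3 to d21, a 6.88-fold decrease (edgeR, adjusted p = 1.1e-05). Between d14 and d21 it did not pass (log2 fold change -0.71 ± 0.34, edgeR adjusted p = 0.14). Without DIO d21 replicate 3, the mouse of d21 with the highest C3ar1, this step was called (log2 fold change -1.10, edgeR adjusted p = 0.046).

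C5ar1 had its lowest mean on d10. Its values were 92.7, 59.4 and 48.0 CPM on d3, 28.3, 32.3 and 37.3 CPM on d5 and 38.0, 18.5 and 31.5 CPM on d7. They were 20.3, 15.9 and 14.5 CPM on d10, 17.4, 23.1 and 15.6 CPM on d14 and 31.5, 27.5 and 22.3 CPM on d21. C5ar1 fell by 1.97 ± 0.27 on the log2 scale from d3 to d10 (edgeR, adjusted p = 0.00011) and fell by 1.28 ± 0.27 from d3 to d21 (edgeR, adjusted p = 0.00086). The step from d14 to d21 was 0.54 ± 0.27 and did not pass (edgeR, adjusted p = 0.16). The ratio of C3ar1 to C5ar1 in CPM, set out after the values were seen, was 1.03 to 1.71 on d14 and 0.272 to 0.918 on d21, so all 3 mice of d21 were below all 3 of d14. Over the earlier DIO days this ratio ran from 0.729 to 2.01.

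C3 had its highest mean on d21. Its level in DIO callus was 121, 104 and 77.4 CPM on d3, 107, 83.2 and 75.7 CPM on d5 and 130, 135 and 147 CPM on d7. It was 57.4, 69.5 and 64.9 CPM on d10 and 55.1, 98.9 and 46.9 CPM on d14, and reached 217, 147 and 140 CPM on d21, above all mice of d14. C3 rose from d14 to d21 by 1.34 ± 0.25 on the log2 scale, a 2.53-fold increase (edgeR, adjusted p = 0.0019). It was also higher on d21 than on d3 (log2 fold change 0.75 ± 0.24, edgeR adjusted p = 0.018), a call that was lost without DIO d21 replicate 1, the mouse with the highest value (adjusted p = 0.13), without DIO d3 replicate 3 (0.11) and in 1 fit of all 30 libraries (0.060). Neutrophil markers rose between d14 and d21 in 7 of 11 genes. Their median change was 1.76 on the log2 scale, with summed levels of 2623 to 8158 CPM on d14 and 12042 to 29172 CPM on d21. The 10 macrophage markers had a median of -0.02, with 1 called lower. The part of either in the rise of C3 was not tested.

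The C1q genes had smaller fold changes than the receptors in DIO callus. C1qa was 427, 236 and 197 CPM on d3, 227, 245 and 267 CPM on d5, 168, 164 and 179 CPM on d7 and 200, 194 and 142 CPM on d10. It was 117, 176 and 137 CPM on d14 and 170, 180 and 136 CPM on d21. The calls of C1qa from d3 to d10 (log2 fold change -0.68 ± 0.24, edgeR adjusted p = 0.049) and to d21 (-0.81 ± 0.24, adjusted p = 0.010), and that of C1qb to d21 (-0.73 ± 0.25, adjusted p = 0.022), were lost without DIO d3 replicate 1. This library also had the highest C1qb, C1qc, C4b, C3ar1 and C5ar1 of the 3 mice of d3, and a summed macrophage marker level of 4381 CPM where the lowest of the 3 had 2107 CPM. Without it the edgeR adjusted p of these 3 calls were 0.38, 0.095 and 0.21, and the call of C1qa on d10 passed in 3 of 18 fits with 1 library left out. That call was also lost with upper-quartile factors (edgeR, adjusted p = 0.055) and with the replicate number as a block (0.058). The call of C1qb to d21 was lost without DIO d21 replicate 3 as well (edgeR, adjusted p = 0.077). C1qc, at 145 to 342 CPM on d3 and 167 to 197 CPM on d21, was not called in any of these comparisons. The falls of C3ar1 and C5ar1 to d10 and d21 were called without DIO d3 replicate 1 too.

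C2 was called on d21 and C4b in none of the DIO comparisons. C2 stood at 5.02, 5.66 and 2.56 CPM on d14 and at 2.42, 2.79 and 1.89 CPM on d21, groups that overlapped, and its fall of 0.89 ± 0.29 on the log2 scale was called (edgeR, adjusted p = 0.041). It fell as well from 3.96, 5.68 and 4.61 CPM on d3 to d21 (log2 fold change -0.99 ± 0.29, edgeR adjusted p = 0.010). The d14 comparison was called in 11 of 18 fits with 1 library left out, with an adjusted p of up to 0.15 (without DIO d14 replicate 2), and was lost without the filter on low counts (adjusted p = 0.067) and with the replicate number as a block (0.0503). C4b was 17.0 to 44.7 CPM on d3 and 26.3 to 35.4 CPM on d21, with a log2 fold change of 0.22 and a 95% interval of -0.46 to 0.89.

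The diets were then compared within each day. DIO mice differed from Lean mice in both diet and obesity, and the paper describes the model as hyperglycemic, so these cannot be told apart. On no day was a member called by edgeR. On d5 all 8 members were lower in DIO callus, with a median log2 fold change of -0.61 beside 0.01 over all genes. In 6 of the 8, C1qa, C1qb, C1qc, C2, C3 and C4b, all 3 DIO mice were below all 3 Lean mice, an order found in 12.4% of all genes tested on that day. These 6 are not independent: in deviations from the group means over the 30 libraries, the C1q genes correlated at r of 0.93 to 0.96. The call rate over all genes on d5 was 1.08%, and 6 of 8 members had an unadjusted p under 0.05, as did 18.5% of all genes.

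**Figure D2:**
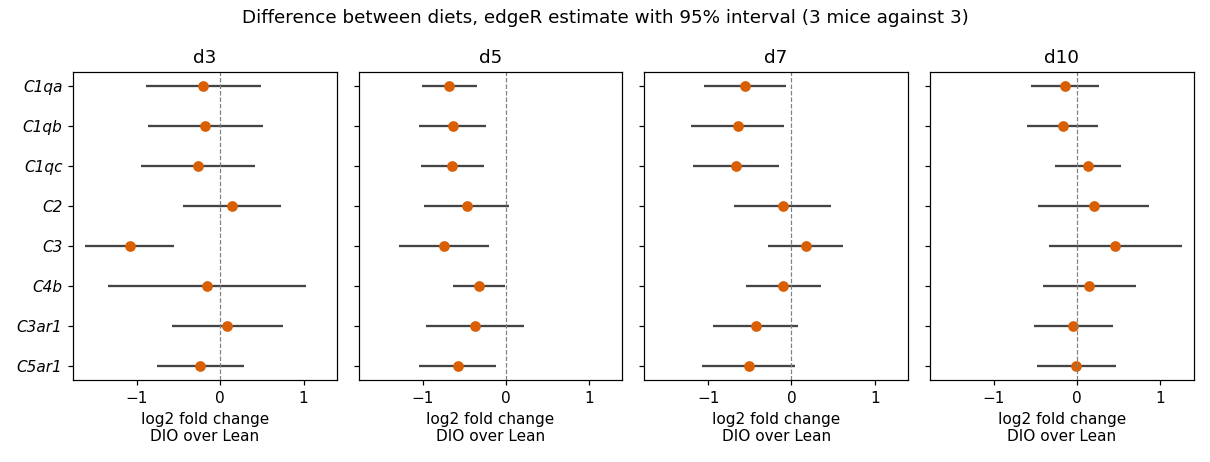
Log2 fold change of DIO over Lean callus for the 8 members tested (rows) on d3, d5, d7 and d10 (panels), with points for edgeR's estimate and lines for a 95% interval derived from its F statistic, 3 mice against 3. On d5 all 8 points lie below 0, and on d10 they lie between -0.17 and 0.46.

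C1qa on d5 was 451, 394 and 336 CPM in Lean mice against 227, 245 and 267 CPM in DIO mice, a log2 difference of -0.68 ± 0.14 (edgeR, adjusted p = 0.071). C1qb was 633, 528 and 423 against 304, 332 and 382 CPM (-0.64 ± 0.17, edgeR adjusted p = 0.11) and C1qc 409, 360 and 292 against 198, 223 and 258 CPM (-0.65 ± 0.16, edgeR adjusted p = 0.10). The 95% interval for C1qa, -1.01 to -0.35, excluded 0 although the corrected test did not pass. DESeq2 called these 3 genes and C3 on d5, at adjusted p of 0.00079 (C1qa), 0.011 (C1qb), 0.0071 (C1qc) and 0.025 (C3), while calling 1116 genes in all where edgeR called 170. With Lean d5 replicate 3 left out, edgeR called the 3 C1q genes as well (adjusted p = 0.020, 0.026 and 0.027), with 5.82% of all genes. Without Lean d5 replicate 1, which had the highest C1q values, the differences were -0.58 (C1qa), -0.50 (C1qb) and -0.54 (C1qc). None of these passed (edgeR, adjusted p = 0.088, 0.17 and 0.15). Macrophage markers were lower in the same libraries: their summed level was 3619 to 4851 CPM in Lean and 2180 to 2437 CPM in DIO callus, with 1 of 10 called and a median of -0.53. Other lists were lower on d5 too: 5 of 7 dendritic or MHC class II genes (median -1.30) and 5 of 8 interferon response genes (median -1.40) were called lower. The 4 monocyte and 11 neutrophil markers had medians of -1.71 and -1.89, with 0 called by edgeR, 4 and 9 at an unadjusted p under 0.05, and 3 and 0 called by DESeq2. In the same libraries the summed chondrocyte markers were higher in mean, at 1740 to 8921 CPM in Lean and 7534 to 14397 CPM in DIO callus. Of the 5, 0 were called by edgeR, 3 had an unadjusted p under 0.05 and 1 was called by DESeq2. Summed fibroblast markers were 6275 to 9258 CPM in Lean and 9811 to 10378 CPM in DIO callus. CPM are shares of a library, and the part of any of these lists in the lower members was not tested.

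On d3 no member was called by edgeR between diets, and C3 had the largest difference. C3 stood at 173, 281 and 185 CPM in Lean mice against 121, 104 and 77.4 CPM in DIO mice, with no overlap, and differed by -1.09 ± 0.23 on the log2 scale, a level 2.13-fold lower (edgeR, adjusted p = 0.11). It was the 1 member of 8 with all DIO mice below all Lean mice, an order found in 10.6% of all genes, so the count was near that share. On that day edgeR called 0 of 15772 genes, 0% in all, although 2374 had an unadjusted p under 0.05, 1 member among them, and DESeq2 called C3 (adjusted p = 0.00055) among 753 genes. The summed neutrophil markers were 12272 to 26540 CPM in Lean and 2328 to 3979 CPM in DIO callus, with 0 of 11 called by edgeR, 11 at an unadjusted p under 0.05 and 11 called by DESeq2. The C1q genes and the receptors overlapped between diets on d3, with log2 differences from -0.27 to 0.08.

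By d7 the members overlapped between diets, 0 of 8 with all DIO mice below all Lean mice (12% of all genes), and 0 of 8 were called by edgeR or DESeq2, with 3 of 8 at an unadjusted p under 0.05 (16.6% of all genes), where edgeR called 2.32% of all genes and DESeq2 922 genes. The C1q genes were still lower in mean, by log2 differences of -0.56 (C1qa), -0.65 (C1qb) and -0.67 (C1qc). Lean d7 replicate 3 lay within the DIO range, at 168 CPM of C1qa beside 164 to 179 CPM, and without it C1qb and C1qc were called (edgeR, adjusted p = 0.048 and 0.046). C3 on d7 was 89.7, 150 and 129 against 130, 135 and 147 CPM. Macrophage markers on d7 had a median of -0.83, with 3 of 10 called lower, beside 4 of 7 dendritic or MHC class II genes and 6 of 6 osteoclast markers.

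On d10 the log2 differences ran from -0.17 (C1qb) to 0.46 (C3), with 0 of 8 called by edgeR or DESeq2, none at an unadjusted p under 0.05, and 0 with all DIO mice below all Lean mice (7.16% of all genes). Of all 15341 genes edgeR called 0 here, 0%, with 1082 at an unadjusted p under 0.05 and 56 called by DESeq2. The 95% intervals on d10 were widest for C3, -0.34 to 1.26, and reached from -0.55 to 0.26 for C1qa. Averaged over d3 to d10 in 1 fit of 24 libraries, all 8 members were lower in DIO mice, 0 of 8 were called by edgeR (2.46% of all genes), 4 had an unadjusted p under 0.05 (19.9% of all genes) and DESeq2 called 2, among 1097 genes in all. The mean log2 difference was -0.40 ± 0.12 for C1qa (edgeR, adjusted p = 0.082) and -0.41 ± 0.13 for C1qb (adjusted p = 0.093). Without DIO d3 replicate 1 this comparison called 4 members, C1qa, C1qb, C1qc and C5ar1 (edgeR, adjusted p = 0.016, 0.021, 0.020 and 0.043), beside 3.53% of all genes. Without Lean d7 replicate 3 it called C1qa and C1qb (edgeR, adjusted p = 0.046 and 0.044). Leaving out Lean d10 replicate 1, it called C3 (edgeR, adjusted p = 0.047), among 1485 genes in all. Whether the diet difference changed between days was tested in the same fit, and 0 of 8 members were called by edgeR (1.65% of all genes), with 1, C3, at an unadjusted p under 0.05 (18.4% of all genes) and called by DESeq2 (adjusted p = 0.11 by edgeR and 0.020 by DESeq2), among 1130 genes.

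Levels were also set against the macrophage markers, as the log2 CPM of a member minus the mean log2 CPM of the 10 marker genes in the same library. Between d3 and d10 C1qa differed on this scale by 0.18 in Lean and -0.16 in DIO callus, with overlapping mice, and the Lean value was -0.13 with Csf1r and Adgre1 as the only markers. Between diets on d5 C1qa differed by -0.11 with DIO mice narrowly below Lean mice, where the plain log2 CPM differed by -0.67. With Csf1r and Adgre1 alone the mice overlapped. On d7 C1qa, C1qb and C1qc were higher in DIO callus by 0.28, 0.21 and 0.18 in mean, overlapping, and with Csf1r and Adgre1 alone C1qa (0.40) and C1qc (0.30) stood apart. On d10 they differed by -0.41, -0.43 and -0.13, again overlapping, where the plain log2 CPM of C1qa differed by -0.17. C2 was higher relative to the 10 markers on d10 than on d3 in Lean callus by 0.76, with no overlap, and by 0.45 with overlap when Csf1r and Adgre1 alone were used. On d7 C2 was higher in DIO than in Lean callus by 0.69, and by 0.82 with Csf1r and Adgre1 alone, each with no overlap. Its plain log2 CPM differed there by -0.11. The receptors differed by more between days: from d3 to d10 C3ar1 differed by -1.09 in Lean and -1.60 in DIO callus, and C5ar1 by -1.31 and -1.47, each with no overlap between days. C3 differed by -1.43 in Lean callus from d3 to d10, and between diets by -0.89 on d3 and 1.00 on d7, again with no overlap. In plain log2 CPM these differences were -2.31, -1.06 and 0.19, the last with overlapping mice. The mean log2 CPM of the 10 markers on d7 was 6.41 in Lean and 5.60 in DIO callus. With 3 libraries against 3 the two-sided exact permutation test cannot go below p = 0.1, which 10 of the 48 tests reached, and the smallest adjusted p was 0.48.

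**Figure D3:**
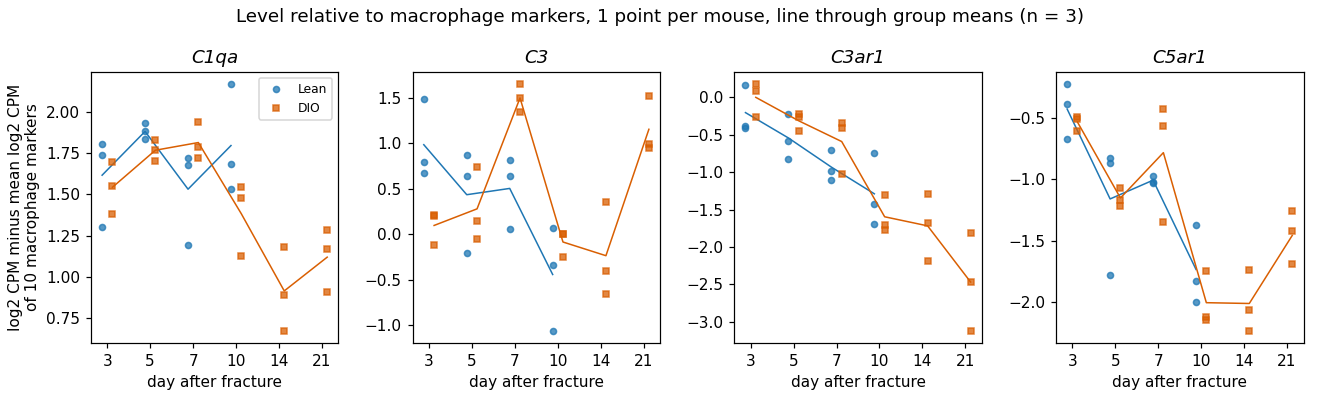
Log2 CPM of C1qa, C3, C3ar1 and C5ar1 minus the mean log2 CPM of 10 macrophage markers (vertical axes, scaled per gene) against the day after fracture (days evenly spaced), with 1 point per mouse and lines through the means of 3 mice. The diets overlapped for C1qa on d3, d7 and d10 and stood narrowly apart on d5 (1.83 to 1.93 against 1.70 to 1.83), and C3 stood apart between diets on d3 and d7, in opposite directions. In plain CPM, C3 overlapped between diets on d7.

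Beyond the 9 members, 45 other complement genes were listed by role, and 27 to 33 of them passed the filter, depending on the fit. Several were not detected at this depth: C8b, Mbl2, C4bp and Cd55b had fewer than 3 counts in all 30 libraries, and C1rb, Colec10, C8a, C9, Mbl1, Cfi, Cpn2, Cpn1, C6 and Cr2 in all libraries of at least 1 group. Of the 7 terminal components, which form the membrane attack complex, 4 were among these (C6, C8a, C8b and C9).

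In Lean callus 15 of 29 other genes were called between d3 and d10, 6 higher and 9 lower, beside 29.3% of all genes (15.2% higher and 14.1% lower). Colec12, a scavenger receptor with a collagen-like domain, rose from 73.3 to 96.4 CPM on d3 to 228 to 279 CPM on d10 (log2 fold change 1.60, edgeR adjusted p = 0.00033). Itgam, which pairs with Itgb2 to form complement receptor 3, fell from 211 to 387 CPM to 16.5 to 56.99 CPM (-2.79, adjusted p = 0.00093). Masp1, a protease of the lectin pathway, went from 1.45 to 4.49 CPM to at most 0.251 CPM, where 1 library was at 0 counts (adjusted p = 0.0018). C1ra was the 1 gene called from d3 to d5, and higher (0.81, adjusted p = 0.027), and Itgam the 1 called from d7 to d10, and lower (-1.81, adjusted p = 0.042). Over any Lean day 10 of 29 differed, beside 19% of all genes.

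In DIO callus 17 of 32 other genes were called from d3 to d10 (11 higher, 6 lower), beside 21.8% of all genes. From d3 to d21 it was 18 of 32 (12 higher, 6 lower), beside 45.3% of all genes. Cd59a, which blocks the membrane attack complex, rose from 7.33 to 9.66 CPM on d3 to 29.04 to 37.3 CPM on d10 and 33.3 to 39.1 CPM on d21 (log2 fold changes 1.94 and 2.07, edgeR adjusted p = 3.2e-06 and 6.3e-07). Cfd, factor D or adipsin, which cleaves factor B and is made largely by fat cells, went from 1.04 to 2.49 CPM on d3 to 160 to 181 CPM on d21 (log2 fold change 6.57, adjusted p = 3.9e-06). Adipocyte markers rose over the same days, with all 6 called higher, from a summed 229 to 440 CPM on d3 to 978 to 1063 CPM on d21, and so did all 5 B cell markers. The part of these cells in the rise of Cfd was not tested. C6 was also called from d3 to d10, with at most 1 count per library on d3 and 1.23 to 2.12 CPM on d10.

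Between d14 and d21 in DIO callus 4 of 32 were called, beside 19.6% of all genes. One was Fcnb, a ficolin of neutrophils and their precursors, at 15.1 to 47.2 CPM on d14 and 93.6 to 184 CPM on d21 (log2 fold change 2.19, edgeR adjusted p = 0.0071). Colec12 (-0.77, adjusted p = 0.023) and C1s1 (-0.84, adjusted p = 0.027) fell. Cfp, properdin, was the 1 called from d3 to d5, and lower (-0.88, adjusted p = 0.021). Over any DIO day 25 of 32 differed, beside 59.1% of all genes.

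Between diets 2 of 28 other genes were called on d7, beside 2.32% of all genes. Clu, clusterin, was 50.6 to 90.4 CPM in Lean and 157 to 214 CPM in DIO mice (log2 difference 1.27 ± 0.23, edgeR adjusted p = 0.027). Averaged over d3 to d10, 2 of 33 were called (2.46% of all genes), Masp1 higher in DIO mice (1.24, edgeR adjusted p = 0.027) and C5ar2, the second receptor of C5a, lower (-0.60, adjusted p = 0.045). On d3 and d5, 0 other genes were called by edgeR, with 10 at an unadjusted p under 0.05 on each day (15.1% and 18.5% of all genes) and 5 and 6 called by DESeq2. On d10, 0 were called by either tool and 1 had an unadjusted p under 0.05. In the test of diet by day edgeR called 0 of 33, with 14 at an unadjusted p under 0.05 (18.4% of all genes) and 1 called by DESeq2.

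**Figure D4:**
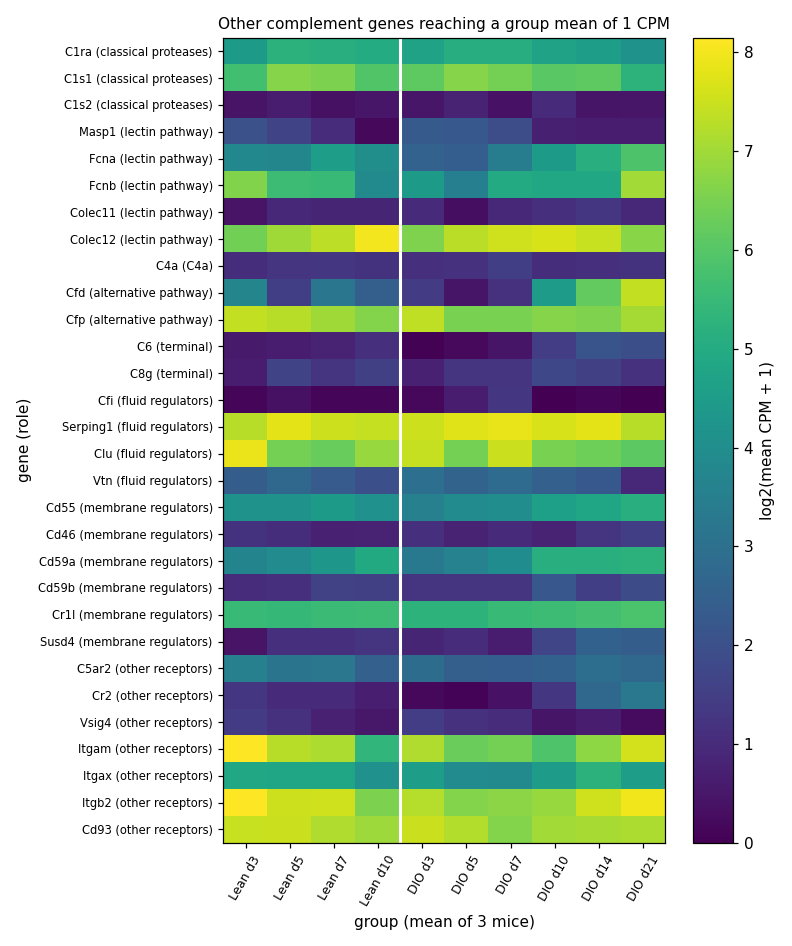
Log2 of the mean CPM plus 1 over 3 mice (colour) for 30 other complement genes that reached a group mean of 1 CPM (rows, with their role) in the 10 groups (columns, Lean left and DIO right of the white line). Cfd is highest in DIO callus of d21 (160 to 181 CPM), and Itgam in Lean callus of d3 (211 to 387 CPM).

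For each member up to 2 non-member genes most like it are given, sought among 12119 genes with a mean of at least 5 CPM, by Pearson's r of log2 CPM over the 30 libraries, a description in which the points share groups, tissue makeup and depth. C3ar1 was closest to P2ry6 (r = 0.96), C5ar1 to Adam8 (0.96) and Efhd2 (0.92), and C3 to Serpinb1a (0.92) and Cd300lf (0.89). The C1q genes had Trem2 in common, with r of 0.89 for C1qa, 0.89 for C1qb and 0.85 for C1qc, beside Tmem106a (0.89), Ms4a7 (0.90) and Apoe (0.92), respectively. C2 was closest to C1qtnf2 (0.79) and Sult5a1 (0.79). The closest to C4b, Adam33 (0.66) and Gpr162 (0.66), were less alike than those of the other members. For Cfb, at 0 to 11 counts, the list gave Fbxl18 (0.74) and Ccdc141 (0.70).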

How the data were processed

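Callus RNA of 30 libraries was read as poly(A) mRNA. The authors deposited raw read counts per gene, made with bcl2fastq, BBDuk, HISAT2 2.1.0 against GRCm38 and HTSeq; the HTSeq version, annotation and strand option are not given in the sources used here. Of 43629 ids, 42548 matched GENCODE M21, which gave symbols and lengths. Library totals were 13247122 to 26365620, and no 2 libraries of a group differed by less than sampling noise (chi-square per degree of freedom 13.6 to 160 over 30 pairs).

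Counts were tested with edgeR 4.0.16 (R 4.3.3, quasi-likelihood F-test, TMM, filterByExpr, Benjamini-Hochberg over all genes tested, 0.05) in 15 comparisons, after tests on simulated data. The alternatives were other normalization factors, no filter, DESeq2 1.42.0, a replicate block, 1 fit of all libraries and each library left out. CPM were TMM-scaled, with a prior count of 2 for log2 values. Levels relative to macrophage markers were compared by two-sided exact permutation tests. All 9 members are named, with up to 3 other complement genes of smallest adjusted p per comparison, those not detected in a group, and 2 genes most like each member. The members and lists were chosen with earlier results of these data known. Some genes that this rule would name are not reported here.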

Additional observations from a re-analysis of the deposited data

How the results depend on the processing

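RLE and upper-quartile factors left every count of called members within 1.5 times of the value reported. Without the filter on low counts, 3 members were called between Lean d7 and d10, 1 from DIO d3 to d5, 5 from DIO d3 to d10, 1 from DIO d14 to d21, and 1 between diets on each of d3 and d5. DESeq2 called 1 from Lean d3 to d5, 3 from Lean d7 to d10, 1 from DIO d3 to d5, 5 from DIO d3 to d10, 1 between diets on d3, 4 on d5, 2 over d3 to d10, and 1 for diet by day. One fit of all 30 libraries called 2 from Lean d7 to d10 and 1 from DIO d3 to d5. The causes were not tested.

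With the replicate number as a block (replicate block), 3 members were called from Lean d7 to d10, 1 from DIO d14 to d21 and 1 between diets on d3, and the other counts stayed within 1.5 times. In no comparison did every pair of same-numbered libraries correlate above 0.1 in its deviations from the group means, so the numbers were not taken to pair the mice.

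With each library left out in turn, the members called were 3 to 6 over any Lean day, 0 to 1 from Lean d3 to d5, 3 to 6 from Lean d3 to d10, 1 to 2 from Lean d7 to d10, 0 to 1 from DIO d3 to d5, 2 to 5 from DIO d3 to d10, and 1 to 2 from DIO d14 to d21. Between diets they were 0 to 3 on d5, 0 to 2 on d7, 0 to 4 over d3 to d10 and 0 to 1 for diet by day.

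Over all genes, counts moved by more than 1.5 times under the other settings as follows. DESeq2 called 4777 genes over any Lean day in place of 3132. From Lean d3 to d5, 74 genes became 169 without the filter, 596 with DESeq2, 199 with the block and 202 in 1 fit. From Lean d7 to d10, 450 became 1773, 1479 and 1529 with DESeq2, the block and 1 fit. From DIO d3 to d5, 285 became 478 without the filter and 580 with DESeq2. Between diets on d3, 0 became 515 without the filter, 753 with DESeq2, 325 with the block and 1 with upper-quartile factors. On d5, 170 became 565 without the filter, 1116 with DESeq2, 0 with the block and 63 in 1 fit. On d7, 366 became 724, 922 and 675 without the filter, with DESeq2 and in 1 fit. On d10, 0 became 29, 56 and 3 in the same order. Over d3 to d10, 419 became 633, 1097 and 653 in that order, and for diet by day 282 became 503 and 1130 without the filter and with DESeq2. With 1 library left out, the range was 1678 to 3130 genes over any Lean day, 9 to 251 from Lean d3 to d5, 2863 to 5016 from d3 to d10 and 24 (without Lean d7 replicate 2) to 1141 (without Lean d10 replicate 3) from d7 to d10. In DIO callus it was 90 to 354 from d3 to d5, 2184 to 3975 from d3 to d10 and 1285 to 4070 from d14 to d21. Between diets it was 0 to 237 on d3, 0 (without Lean d5 replicate 2) to 935 (without Lean d5 replicate 3) on d5, 29 (without Lean d7 replicate 2) to 936 (without DIO d7 replicate 3) on d7 and 0 to 10 on d10. Over d3 to d10 it was 32 (without Lean d3 replicate 2) to 1485 (without Lean d10 replicate 1), and for diet by day 0 (without Lean d7 replicate 2) to 602 (without Lean d10 replicate 3).

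Some differences that were not called changed sign. C1qc from DIO d3 to d5 was -0.0055 with RLE factors and -0.00569 with DESeq2, C1qb from DIO d14 to d21 was -0.0102 with upper-quartile factors, which shifted the median of all genes by -0.13, and C5ar1 between diets on d10 was 0.017 with these factors. Relative to Csf1r and Adgre1 alone, C1qa, C1qb and C1qc from Lean d3 to d10 were -0.13, -0.094 and -0.16. Leaving out 1 library gave log2 fold changes from Lean d3 to d10 of -0.28 to 0.048 for C2 and -0.84 to 0.28 for C4b. From DIO d3 to d5 they were -0.43 to 0.19 for C1qa, -0.41 to 0.28 for C1qb, -0.23 to 0.44 for C1qc and -0.24 to 0.081 for C2. From DIO d3 to d10 they were -0.59 to 0.086 for C1qc, -0.20 to 0.059 for C2 and -0.50 to 0.27 for C4b. C1qb from DIO d14 to d21 was -0.019 to 0.22, and from DIO d3 to d21 C1qc was -0.53 to 0.14 and C4b -0.065 to 0.71. Between diets on d3 the ranges were -0.62 to 0.012 for C1qa, -0.61 to 0.082 for C1qb, -0.013 to 0.31 for C2, -0.68 to 0.63 for C4b and -0.35 to 0.28 for C3ar1. On d7 they were -0.019 to 0.33 for C3 and -0.25 to 0.065 for C4b, on d10 -0.021 to 0.40 for C4b, -0.21 to 0.071 for C3ar1 and -0.16 to 0.091 for C5ar1, and over d3 to d10 -0.24 to 0.091 for C4b.

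With 3 mice a group, a difference between diets that missed the threshold is not shown to be absent. C2 and Cfb are limited by the bases they share with Gm20547.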
